A study of Mus musculus with 6 samples.

Results

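DNA replication and S phase genes were followed in B16-F10 cells grown in culture, a melanoma line of the mouse, that were labelled Sirpa-KO or Sirpa-WT. The set holds 41 genes, listed by name for origin licensing, the replication fork, nucleotide supply and replication-coupled chromatin, and all 41 were found by Ensembl identifier among the 39179 genes of the deposited files. Expression was measured by poly(A)-selected RNA sequencing in 3 libraries of Sirpa-KO cells and 3 of Sirpa-WT cells. Sirpa codes for SIRPα, the membrane receptor that binds CD47, and the series text asks how steady-state expression differs between the 2 kinds of tumour line. The sources used here give neither the edit in the Sirpa-KO cells nor whether a line is 1 clone, a treatment or a time, and other label fields name the tissue as tumor and the cell line as Pmel. Nothing in them shows that the replicates were grown apart, and p-values here therefore cover the spread of these libraries alone, which may be technical.

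Replication begins when ORC, CDC6 and CDT1 load the MCM2-7 ring on DNA as an inactive helicase, a step called licensing that geminin blocks later in the cycle. CDC45 and the GINS complex then join MCM2-7 to form the active helicase, while the clamp PCNA, the primase and polymerases, RPA and the enzymes of nucleotide supply carry the fork. Most of these genes are transcribed under E2F factors when RB is inactivated at the G1/S transition, so their RNA is widely read as a sign of cycling cells. In a bulk library, however, a different share of cells in S phase and a different amount of RNA per cell cannot be told apart.

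One library stood apart. Sirpa-KO replicate 1, called the deep library below, held 29877270 counts, while the other 5, called shallow, held 338824 to 411695, so that 1 count there equals 2.43 to 2.95 CPM (the count scaled to a common library total). The share of counts in processed pseudogenes, which lack introns, was 0.16% in the deep library, 25.6% and 25.8% in Sirpa-KO replicates 3 and 2, and 27.7% to 28.7% in Sirpa-WT. Sirpa itself had 1584, 6 and 6 counts (53.0, 17.7 and 16.3 CPM) in the libraries labelled Sirpa-KO and 12, 7 and 3 counts (29.1, 20.4 and 8.68 CPM) in those labelled Sirpa-WT. Its RNA thus does not tell the labels apart, and every direction below is between libraries so labelled. The 7 listed melanocyte genes were detected in all libraries, with summed levels of 12626 to 15519 CPM in Sirpa-KO and 15960 to 19092 CPM in Sirpa-WT. Summed levels were 4.99 to 32.6 CPM in Sirpa-KO and 9.72 to 26.2 CPM in Sirpa-WT for 8 leukocyte markers. Of these, Cd3e and C1qa were at 0 throughout and Ptprc had 1 count, in the deep library. Itgam had 1, 5 and 9 counts in Sirpa-KO, against 3, 7 and 5 counts in Sirpa-WT. Lyz2 had 85, 0 and 2 counts in Sirpa-KO, against 1, 1 and 1 in Sirpa-WT. Cd68 had 61, 0 and 1 counts in Sirpa-KO, against 0, 1 and 0 in Sirpa-WT. The 6 fibroblast markers summed to at most 13.6 CPM in Sirpa-KO and 11.6 CPM in Sirpa-WT, and the 4 endothelial markers to at most 2.72 CPM in Sirpa-KO and 0 CPM in Sirpa-WT. Results are given with and without the deep library.

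Replication genes were expressed in every library. Of the 41 genes, 40 had a count in all 6 libraries, and Fen1 was the exception. Levels per length are given as RPKM, which is CPM per kilobase of the gene's merged exons. The median RPKM of the 41 genes was 29.7, 14.4 and 16.8 in Sirpa-KO replicates 1 to 3, against 12.1, 12.9 and 14.5 in Sirpa-WT replicates 1 to 3. Their summed level was 6601, 4197 and 4205 CPM in Sirpa-KO, against 3714, 3740 and 3997 CPM in Sirpa-WT. On plain CPM all 3 Sirpa-KO sums lay above the Sirpa-WT sums, and the deep library set most of the distance. The Sirpa-KO mean was 1.31 times the Sirpa-WT mean with the deep library and 1.10 times without it (4201 ± 5.67, SD, n = 2, against 3817 ± 156, SD, n = 3). On totals scaled by the trimmed mean of M values (TMM), the method used in the tests, the same ratios were 1.17 and 1.01. The groups then overlapped, with Sirpa-WT replicate 3 above Sirpa-KO replicates 2 and 3.

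**Figure D1:**
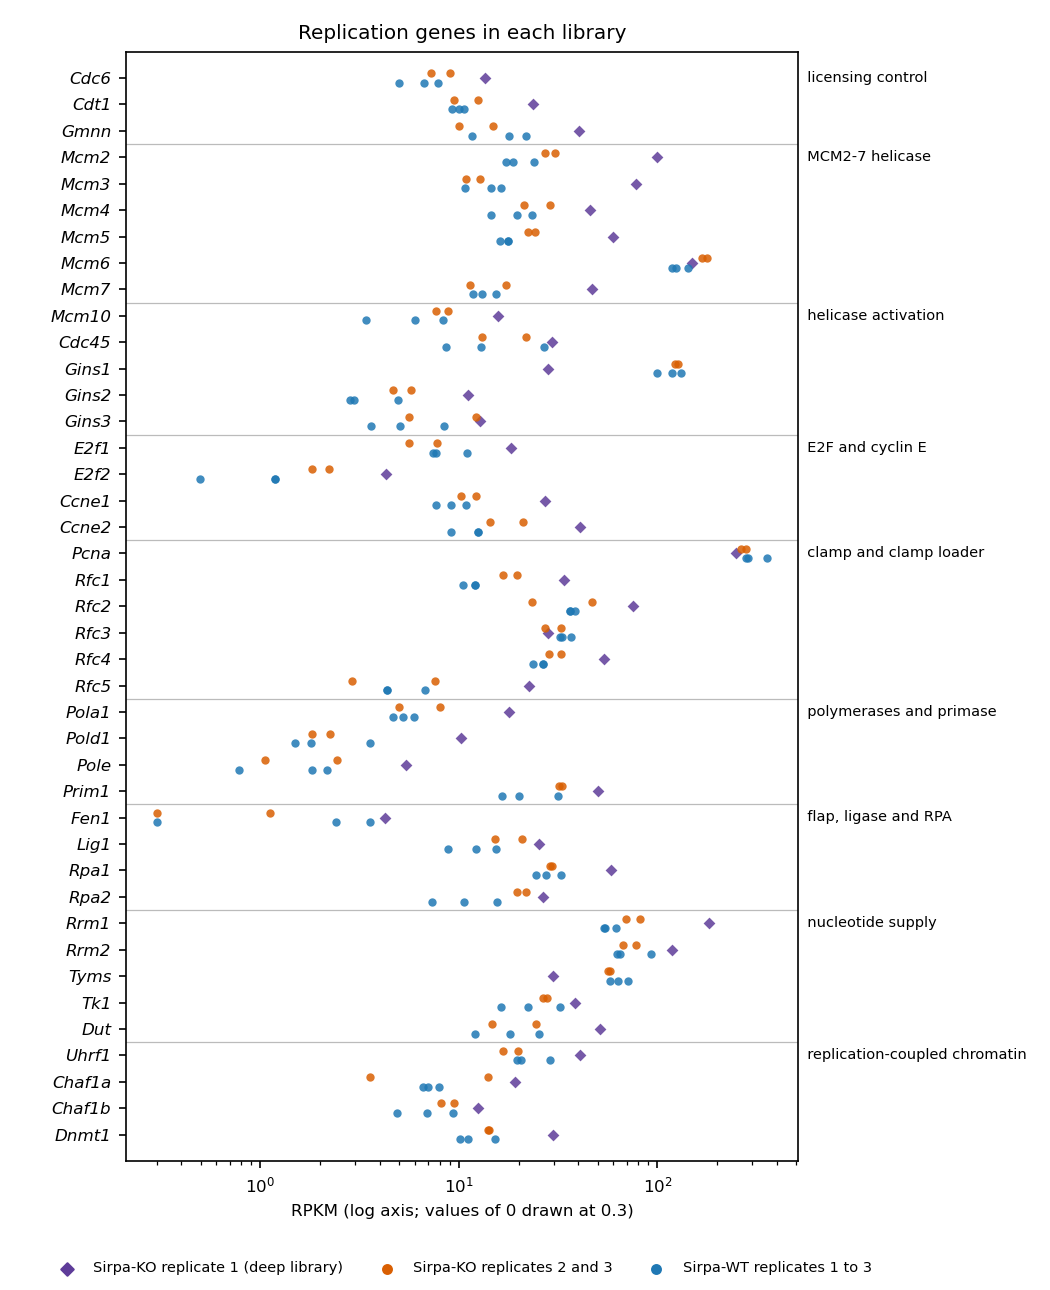
Level of each of the 41 replication genes in each library, in RPKM on a log axis, ordered by role. Diamonds are Sirpa-KO replicate 1, orange points Sirpa-KO replicates 2 and 3, and blue points the 3 Sirpa-WT libraries. Pcna, Mcm6 and Gins1 are the most abundant in the shallow libraries, and in 36 genes the diamond lies above every shallow library. The same was not counted over all genes.

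No replication gene passed the test between Sirpa-KO and Sirpa-WT. With all 6 libraries, edgeR's quasi-likelihood test called 0 of the 31 members that passed the count filter at an adjusted p under 0.05, beside 0 of all 5397 genes tested (0%), and the smallest adjusted p of any gene was 0.574. Without the deep library it called 0 of 30 members, while 322 of 5510 genes were called (5.84%). The smallest adjusted p among members was then 0.124, for Pcna. DESeq2 and limma voom also called 0 members in either comparison. Among all genes, DESeq2 called 1 higher and 0 lower of 5397 with 6 libraries, and 15 higher and 112 lower of 5510 with 5. Voom called 23.8% of all genes with 6 libraries, and 72 higher and 225 lower of 5510 with 5.

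The precision differed greatly between the 2 fits. The biological coefficient of variation was 75.8% with the deep library and 7.25% without it. In the 5 shallow libraries the log2 fold changes (Sirpa-KO over Sirpa-WT) of the 30 members ran between -0.44 for Uhrf1 and 0.80 for Rpa2, with standard errors of 0.12 to 0.50. The 95% interval lay within a 2-fold change either way for 25 of the 30, as it did for 3658 of all 5510 genes tested. With 6 libraries this held for 3 of 31 members and for 244 of all 5397 genes tested. Changes of 2-fold were thus not excluded for most members in that fit.

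At an unadjusted p under 0.05, 3 members were higher (Mcm6, Rfc1 and Rpa2) and 1 was lower (Pcna) in the 5-library fit, where 8.95% of all genes were higher and 11.9% lower by that rule. In the 6-library fit 1 member (Rfc1) was higher and 0 lower, against 4.71% and 1.67% of all genes. The log2 fold change was above 0 for 27 of 31 members with 6 libraries and for 18 of 30 without the deep one, against 52.7% and 51.2% of all genes. The median over members was 0.56 with 6 libraries and 0.12 with 5, beside medians of 0.11 and 0.01 over all genes tested. Over all 41 members, in fits without a count filter, these medians were 0.35 and 0.07. For 22 of the 30 members tested in both fits the sign was the same, and the other 8 were above 0 with the deep library and below 0 without it.

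Plain CPM of the groups did not overlap for 10 of the members tested, 9 higher and 1 (Tyms) lower, and these counts were the same with and without the deep library. Among all genes 20.4% were higher and 10.2% lower in this way with 6 libraries, and 26.3% and 11.8% with 5. The members' share that was higher was 29.0% with 6 libraries, above that background, and 30% with 5, near it. The share that was lower, 1 member in each, was under the background. These differences were not tested. On TMM-scaled CPM of the 5 shallow libraries, 7 of 30 members were higher (Mcm2, Mcm5, Mcm6, Ccne2, Rfc1, Rpa2 and Rrm1) and 4 lower (Pcna, Rfc3, Tyms and Uhrf1), against 18.1% and 18.8% of all genes.

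**Figure D2:**
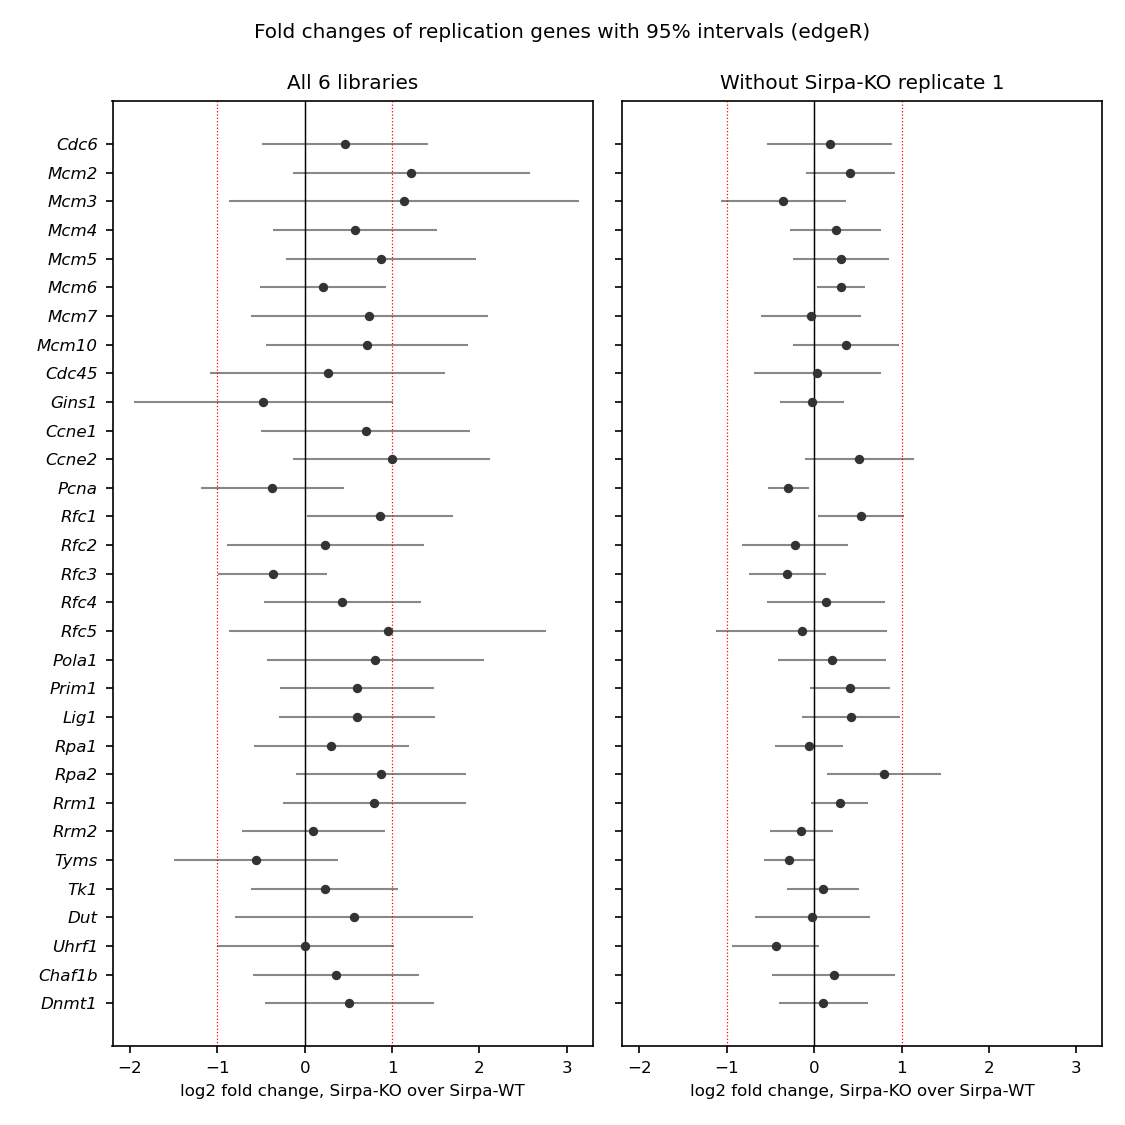
Log2 fold change, Sirpa-KO over Sirpa-WT, of each member that passed the count filter, with its 95% interval, from edgeR with all 6 libraries (left) and without Sirpa-KO replicate 1 (right). The solid line marks no change and dotted lines a 2-fold change. Intervals are narrower on the right, where 25 of 30 lie between the dotted lines.

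Licensing control was carried by 3 genes. Cdt1, which loads MCM2-7 with CDC6, had 23.7, 9.44 and 12.4 RPKM in Sirpa-KO, against 9.99, 10.6 and 9.25 RPKM in Sirpa-WT. Gmnn, which encodes the CDT1 inhibitor geminin, had 40.3, 10.1 and 14.9 RPKM in Sirpa-KO, against 11.6, 17.9 and 21.7 RPKM in Sirpa-WT. The groups overlapped for both genes, and both rested on 5 to 11 counts in the shallow libraries, under the filter of both fits. Cdc6, the loading ATPase, had a log2 fold change of 0.18 (95% interval -0.54 to 0.89) in the shallow libraries and 0.46 (-0.49 to 1.41) with all 6.

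All 6 subunits of the MCM2-7 helicase were tested, and none passed. Their summed CPM was 1579, 880 and 851 in Sirpa-KO, against 670, 599 and 735 in Sirpa-WT, with no overlap between groups. Without the deep library the sums averaged 865 ± 19.9 CPM in Sirpa-KO (SD, n = 2) and 668 ± 68.0 CPM in Sirpa-WT (SD, n = 3). On TMM-scaled totals the shallow sums were 909 and 874 CPM in Sirpa-KO, against 750, 668 and 826 CPM in Sirpa-WT, which still did not overlap. The ratio of these means, Sirpa-KO over Sirpa-WT, was 1.19. Over the other role groups it ran from 0.87 (clamp and clamp loader) to 1.20 (polymerases and primase). Sirpa-KO was also the lower for licensing control, nucleotide supply and replication-coupled chromatin. Mcm6 (chr1:128331591-128359656, minus strand, GRCm38, 17 merged exons), a subunit of the ring, had 150, 177 and 168 RPKM in Sirpa-KO, against 124, 118 and 143 RPKM in Sirpa-WT. All 3 Sirpa-KO values lay above the Sirpa-WT values, with the deep library nearest to them. On TMM-scaled CPM the groups overlapped with all 6 libraries but not in the 5 shallow ones. The log2 fold change was 0.31 in the shallow libraries (0.03 to 0.58, edgeR unadjusted p = 0.028, adjusted p = 0.173) and 0.21 with all 6 (-0.51 to 0.93). Scaled by library size alone, with no TMM factors, Mcm6 passed in the shallow libraries (0.44, adjusted p = 0.028), where 7.39% of all genes did.

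Mcm2 (chr6:88883475-88898780, minus strand), another subunit, had 99.3, 27.1 and 30.7 RPKM in Sirpa-KO, against 18.7, 17.3 and 24.0 RPKM in Sirpa-WT. The groups did not overlap, and the deep library stood far above the other 5. Its log2 fold change was 0.42 (-0.10 to 0.93, adjusted p = 0.371) without the deep library and 1.22 (-0.14 to 2.58, adjusted p = 0.574) with it. Of the other subunits, described after their values were seen, Mcm5 also did not overlap, with 59.5, 24.1 and 22.3 RPKM in Sirpa-KO, against 17.7, 16.1 and 17.8 RPKM in Sirpa-WT. Mcm3, Mcm4 and Mcm7 overlapped between groups, with log2 fold changes in the shallow libraries of -0.36, 0.25 and -0.03.

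The 6 subunits form a ring with 1 copy of each, but their RNA was unequal, and more so in the shallow libraries. Mcm6 made up 31.3% of the summed RPKM of the 6 subunits in the deep library, 62.9% and 62.1% in Sirpa-KO replicates 2 and 3, and 58.6% to 62.2% in Sirpa-WT. It stood 1.51 times above the next subunit in the deep library, 6.15 and 5.47 times in Sirpa-KO replicates 2 and 3, and 5.93 to 6.85 times in Sirpa-WT. Mcm6 shared 1.94% of its 25-base words with annotated pseudogenes and overlapped no exon of another gene. The other 5 subunits differed among themselves by 2.17 times in the deep library, by 2.54 and 2.81 times in Sirpa-KO replicates 2 and 3, and by 1.28 to 2.04 times in Sirpa-WT. The cause of the Mcm6 excess in the shallow libraries was not tested.

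**Figure D3:**
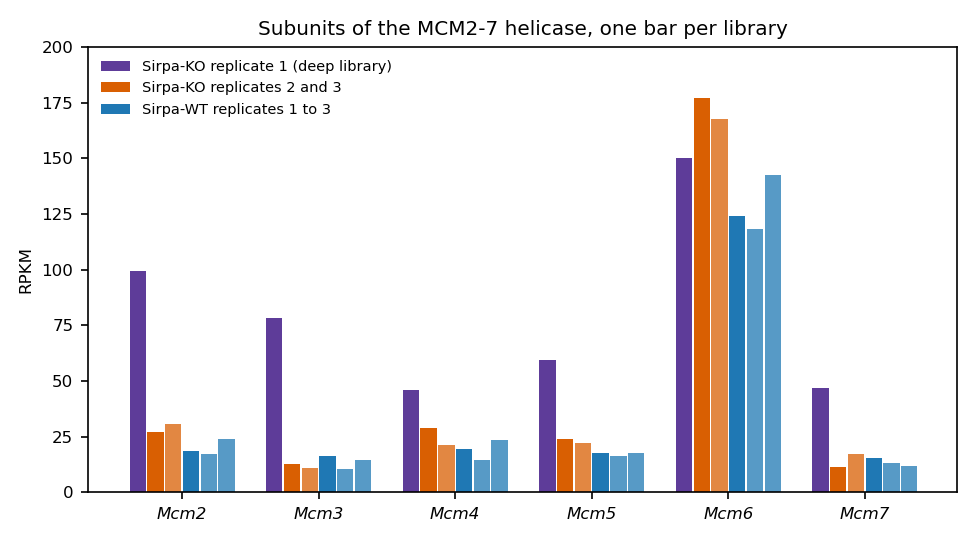
RPKM of the 6 subunits of the MCM2-7 helicase, with 1 bar per library in the order Sirpa-KO replicates 1 to 3, then Sirpa-WT replicates 1 to 3. Mcm6 reaches 118 to 177 RPKM in the shallow libraries, where no other subunit exceeds 30.7, while the deep library spreads between 45.8 and 150.

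The promoters of these genes are known targets of E2F, and their sequence was read from RefSeq (GRCm38.p6) for the 34 members with an entry, in windows of 250 bases before to 50 bases after the start. The letters searched on both strands, with overlapping matches merged, were TTTCCCGC, TTTCGCGC, TTTGCCGC and TTTGGCGC. They were present in 14 of 34 members (41.2%), against 18 of 73 genes of the wider pathway list (24.7%) and 575 of 17492 protein-coding genes (3.29%). CCAAT, on either strand, was present in 21 of 34 members (61.8%), against 42.3% of protein-coding genes. Pieces around a match upstream of the start are shown with the matching letters in capitals, 5′ to 3′ on the gene's strand. They come from Mcm5 and Mcm6, whose groups did not overlap, and from Gins3 and Pola1 of the helicase activators and polymerases. On plain CPM groups overlapped for Gins3 and Pola1. They also overlapped for Cdc6, Cdt1, Dnmt1, Lig1, Mcm3, Mcm7, Pold1, Rfc3 and Uhrf1, which had matches as well. E2f2, under the count filter, had a match and did not overlap. No match was found for Mcm2, Ccne2, Rfc1, Rfc4, Prim1, Rpa2 and Rrm1, whose groups did not overlap, but not every member had an entry. In Mcm5 and in the distal Mcm6 piece 2 matches on opposite strands overlap. A match is a description of the letters and not of binding.
Mcm5 chr8:75109330-75109393, plus strand: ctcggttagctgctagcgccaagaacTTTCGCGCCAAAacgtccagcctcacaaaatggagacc
Mcm6 distal chr1:128359778-128359841, minus strand: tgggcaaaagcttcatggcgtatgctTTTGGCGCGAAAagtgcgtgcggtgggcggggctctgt
Mcm6 proximal chr1:128359719-128359778, minus strand: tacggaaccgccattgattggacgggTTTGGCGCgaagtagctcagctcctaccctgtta
Gins3 chr8:95633492-95633551, plus strand: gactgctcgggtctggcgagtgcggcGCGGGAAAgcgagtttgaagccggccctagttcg
Pola1 chrX:93632260-93632319, minus strand: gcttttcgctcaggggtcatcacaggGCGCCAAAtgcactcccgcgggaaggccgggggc

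No gene of helicase activation passed the test. Gins1 (chr2:150905400-150931280, plus strand), a subunit of the GINS complex, had 28.0, 123 and 127 RPKM in Sirpa-KO, against 131, 99.8 and 118 RPKM in Sirpa-WT. The deep library was the lowest, and the 5 shallow ones overlapped. The log2 fold change was -0.03 without the deep library (-0.40 to 0.34) and -0.48 with it (-1.96 to 1.01). Cdc45, which joins GINS on the helicase, had 29.4, 13.1 and 21.7 RPKM in Sirpa-KO, against 8.63, 12.9 and 27.0 RPKM in Sirpa-WT. Its groups overlapped (log2 fold change 0.04 in the shallow libraries, -0.68 to 0.76). Mcm10, which helps the helicase open, had a log2 fold change of 0.37 there (-0.24 to 0.97).

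The balance of GINS subunits also depended on the library. Gins1 made up 27.0% of the summed RPKM of Gins1 to Gins4 in the deep library, 76.6% and 87.5% in Sirpa-KO replicates 2 and 3, and 87.4% to 91.9% in Sirpa-WT. Gins4, a GINS gene of the pathway list and no member, made up 49.9% in the deep library, 12.2% and 5.48% in Sirpa-KO replicates 2 and 3, and 1.88% to 6.27% in Sirpa-WT. The shallow Gins4 shares rested on few counts, 9 and 4 in Sirpa-KO replicates 2 and 3, against 2, 1 and 4 in Sirpa-WT. Gins2 and Gins3 had 3 to 10 counts in each shallow library and were not tested. Exons of Gse1 covered 67.3% of Gins2's exonic bases, so its count is uncertain.

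Among E2F and cyclin E genes, Ccne2, which encodes a cyclin that activates CDK2 at the G1/S transition, had 40.6, 14.4 and 21 RPKM in Sirpa-KO, against 12.5, 9.15 and 12.4 RPKM in Sirpa-WT. The groups did not overlap, but Sirpa-KO replicate 2 was close to the highest Sirpa-WT library. The log2 fold change was 0.52 in the shallow libraries (-0.11 to 1.14, adjusted p = 0.359) and 1.0 with all 6 (-0.13 to 2.13, adjusted p = 0.574). Ccne1, the other cyclin E gene, had 27.0, 12.2 and 10.2 RPKM in Sirpa-KO, against 9.12, 7.65 and 10.9 RPKM in Sirpa-WT, which overlapped, and was tested with 6 libraries alone (log2 fold change 0.70, -0.50 to 1.89). E2f1 and E2f2, which encode activating E2F factors, had 1 to 12 counts in the shallow libraries and were under the filter. E2f1 ran at 5.61 to 18.4 RPKM in Sirpa-KO and 7.38 to 11 RPKM in Sirpa-WT.

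Estimates for the clamp and its loader lay on both sides of 0, and none passed the test. Pcna (chr2:132249162-132253314, minus strand), which encodes the sliding clamp, was the most abundant member in the shallow libraries, with 248, 280 and 265 RPKM in Sirpa-KO, against 280, 359 and 286 RPKM in Sirpa-WT. Sirpa-KO replicate 2 and Sirpa-WT replicate 1 were nearly equal, so the groups overlapped on this scale. The log2 fold change was -0.29 in the shallow libraries (-0.53 to -0.06, unadjusted p = 0.014, adjusted p = 0.124) and -0.37 with all 6 (-1.19 to 0.45). Pcna passed the test in the shallow libraries when Sirpa-WT replicate 1 was left out (-0.36, adjusted p = 0.039), where 5.93% of genes passed. It also did so with the replicate number as a block (-0.35, adjusted p = 0.047, 5.74% of genes), although it is not known whether the numbers pair the libraries.

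Rfc2, a small subunit of the clamp loader RFC, had 75.6, 46.7 and 23.3 RPKM in Sirpa-KO, against 38.4, 36.4 and 36.2 RPKM in Sirpa-WT. The 2 shallow Sirpa-KO libraries lay on either side of Sirpa-WT (log2 fold change -0.22, -0.83 to 0.38). Rfc1, the large subunit, singled out after its values were seen, had 34.0, 19.7 and 16.8 RPKM in Sirpa-KO, against 10.5, 12.1 and 12.1 RPKM in Sirpa-WT. These groups did not overlap, with a log2 fold change of 0.54 without the deep library (0.04 to 1.03, adjusted p = 0.196) and 0.86 with it (0.02 to 1.70, adjusted p = 0.574). Rfc3, Rfc4 and Rfc5 had log2 fold changes of -0.31, 0.14 and -0.14 in the shallow libraries, and all 3 intervals included 0.

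Primase and polymerase genes did not pass the test. Prim1, the catalytic primase subunit, had 50.2, 32.0 and 33 RPKM in Sirpa-KO, against 20.1, 16.5 and 31.4 RPKM in Sirpa-WT. Sirpa-WT replicate 3 lay just below the Sirpa-KO values, and on TMM-scaled CPM the shallow groups overlapped (log2 fold change 0.41 in the shallow libraries, -0.05 to 0.86, adjusted p = 0.309). Pola1, the catalytic subunit of polymerase alpha, which primes both strands, had 17.9, 5.02 and 8.02 RPKM in Sirpa-KO, against 4.69, 5.94 and 5.25 RPKM in Sirpa-WT, which overlapped. The catalytic subunits of the 2 main fork polymerases, Pold1 and Pole, had 3 to 10 counts in each shallow library, too few to test.

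RPA coats the single-stranded DNA behind the helicase. Rpa1, its large subunit, had 58.6, 29.6 and 28.8 RPKM in Sirpa-KO, against 24.4, 27.6 and 32.7 RPKM in Sirpa-WT, which overlapped (log2 fold change -0.06 in the shallow libraries, -0.45 to 0.33). Rpa2 (chr4:132768332-132778752, plus strand), the middle subunit, had 26.5, 19.7 and 21.8 RPKM in Sirpa-KO, against 7.30, 15.5 and 10.6 RPKM in Sirpa-WT. All Sirpa-KO values were above all Sirpa-WT values. Its log2 fold change was 0.80 without the deep library (0.15 to 1.46, unadjusted p = 0.016, adjusted p = 0.135) and 0.87 with it (-0.10 to 1.85). The value rested on 20 and 24 counts in the shallow Sirpa-KO libraries and 9 to 16 counts in Sirpa-WT.

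Fen1 and Lig1 complete the lagging strand. Lig1, the ligase, had a log2 fold change of 0.42 (-0.14 to 0.98) in the shallow libraries. Fen1, the flap endonuclease, had 306, 0 and 1 counts in Sirpa-KO and 0, 2 and 3 counts in Sirpa-WT, and a count of 0 allows up to 3 counts, or 7.29 to 8.85 CPM, in a shallow library. Exons of other genes, mainly Gm10143 with 1909 bases, covered 84.2% of its exonic bases, so its level is uncertain.

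The 5 genes of nucleotide supply summed to 1564, 1012 and 1069 CPM in Sirpa-KO, against 1023, 919 and 1024 CPM in Sirpa-WT, which overlapped. Rrm1 (chr7:102441695-102469771, plus strand), the large subunit of ribonucleotide reductase, had 182, 69.4 and 81.7 RPKM in Sirpa-KO, against 54.7, 53.8 and 62.3 RPKM in Sirpa-WT. The groups did not overlap, and the deep library was more than 2 times the next. The log2 fold change was 0.29 without the deep library (-0.03 to 0.62, adjusted p = 0.306) and 0.79 with it (-0.25 to 1.84, adjusted p = 0.574). Rrm2, the small subunit, had 119, 67.1 and 78.5 RPKM in Sirpa-KO, against 92.9, 63.0 and 64.8 RPKM in Sirpa-WT. These values overlapped (-0.15 in the shallow libraries, -0.50 to 0.21). Rrm1 made up 60.6%, 50.8% and 51.0% of the 2 subunits' summed RPKM in Sirpa-KO and 37.1%, 46.1% and 49.0% in Sirpa-WT.

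Tyms, which makes thymidylate and was singled out after its values were seen, was the 1 tested member lower in every Sirpa-KO library on plain CPM. It had 29.8, 57.7 and 56.7 RPKM in Sirpa-KO, against 71.0, 57.8 and 63.2 RPKM in Sirpa-WT. Sirpa-KO replicate 2 and Sirpa-WT replicate 2 were nearly equal (log2 fold change -0.29 in the shallow libraries, -0.58 to 0.00, adjusted p = 0.245, and -0.56 with all 6). Tk1 and Dut, of the thymidine salvage and dUTP-cleaving steps, had log2 fold changes of 0.10 and -0.02 in the shallow libraries.

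Genes of replication-coupled chromatin overlapped between groups on the plain scale. Uhrf1 (chr17:56303321-56323486, plus strand), which brings the maintenance methyltransferase to replicated DNA, had 40.8, 16.6 and 19.8 RPKM in Sirpa-KO, against 20.5, 28.7 and 19.7 RPKM in Sirpa-WT. Its log2 fold change was the lowest among the members in the shallow libraries, at -0.44 (-0.94 to 0.06, adjusted p = 0.319), but was 0.01 with all 6 (-1.0 to 1.02). Dnmt1, that methyltransferase, had 29.7, 14.0 and 14.2 RPKM in Sirpa-KO, against 11.2, 10.2 and 15.1 RPKM in Sirpa-WT. These values overlapped (0.10 in the shallow libraries, -0.41 to 0.61). Chaf1a, a subunit of the histone chaperone CAF-1, had 4 and 17 counts in the shallow Sirpa-KO libraries and 8 or 9 in Sirpa-WT, and was not tested, while Chaf1b had a log2 fold change of 0.22 (-0.48 to 0.93).

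Some members share sequence with processed pseudogenes, which differed between the deep and shallow libraries. In 10 of the 41 members at least 5% of 25-base words also occur in an annotated pseudogene, led by Pcna (40.6%), Mcm7 (33.4%) and Uhrf1 (32.0%). Pcna-ps2 had 109, 79 and 70 counts in Sirpa-KO, against 68, 70 and 83 counts in Sirpa-WT. This was 0.61% of the Pcna count in the deep library, 34.6% and 29.9% in Sirpa-KO replicates 2 and 3, and 23.6% to 35.0% in Sirpa-WT. Gm5648, a pseudogene of Uhrf1 on chromosome X, had 3, 29 and 39 counts in Sirpa-KO, against 70, 61 and 56 counts in Sirpa-WT, and exceeded Uhrf1 itself in all 5 shallow libraries.

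Unlike Uhrf1, Gm5648 passed the test without the deep library, at -0.94 ± 0.22 (log2 fold change and SE, edgeR's quasi-likelihood test, adjusted p = 0.00105). Summed over the gene and this pseudogene, the mean level was 173 CPM in Sirpa-KO replicates 2 and 3 (SD 24.0) and 268 CPM in the 3 Sirpa-WT libraries (SD 28.2). Reads that the counting could split between near-identical copies make the levels of Pcna and Uhrf1 uncertain. Gm5487, which shares 1247 words with Mcm7, is not among the genes counted, so no pseudogene count can be set beside Mcm7. Its level is uncertain for that reason. The part of pseudogene reads in these differences was not tested.

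**Figure D4:**
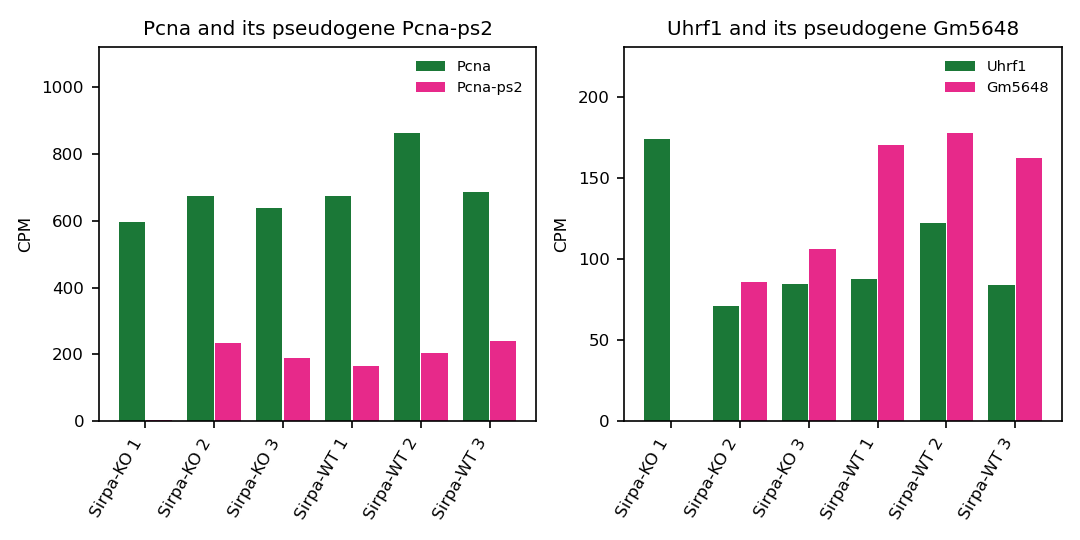
CPM of Pcna and Pcna-ps2 (left) and of Uhrf1 and Gm5648 (right) in each library, Sirpa-KO replicates first. Both pseudogenes are near 0 in Sirpa-KO replicate 1, and Gm5648 stands above Uhrf1 in the other 5 libraries.

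Across members, the deep library ranked the genes differently from the others. Taken over the 41 genes, which are no replicates of each other, Pearson's r on the log2(RPKM + 1) scale was 0.826 to 0.852 between the deep library and each shallow one and 0.928 to 0.958 between shallow libraries. The log2 ratio of CPM + 1, deep library over mean of the 5 shallow ones, had a median of 1.18 over the members and 0.93 over 3360 protein-coding genes tested that share little sequence with pseudogenes. It ran between -2.07 for Gins1 and 2.55 for Mcm3, and was 0.04 for Mcm6. More than 1 below the median of those coding genes lay 4 of the 41 members (Gins1, Tyms, Pcna and Rfc3), against 32% of the coding genes. In CPM, 36 members lay above every shallow library and 3 below every one. The same was not counted over all genes, and the median ratio of the coding genes was itself above 0.

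**Figure D5:**
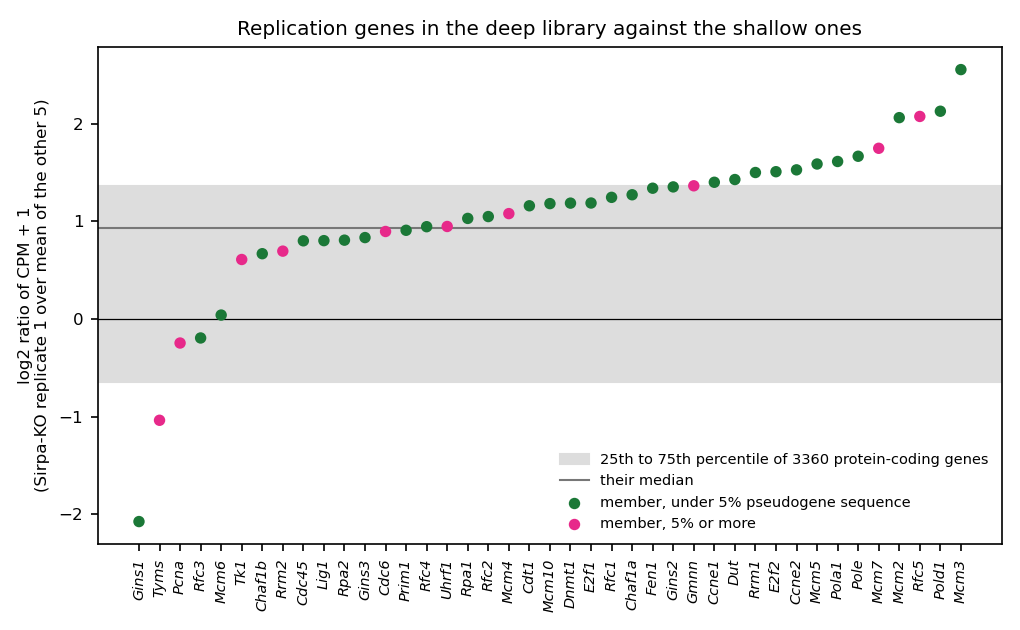
Log2 ratio of CPM + 1 in Sirpa-KO replicate 1 to the mean of the other 5 libraries for the 41 members, in rising order, coloured by whether at least 5% of their 25-base words occur in pseudogenes. The grey band spans the 25th to the 75th percentile and the line the median (0.93) of 3360 protein-coding genes. Gins1, Tyms, Pcna and Rfc3 lie below 0, and Mcm3 is highest at 2.55.

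Other genes of the pathway were read from a list of 88, of which 61 were tested in each fit and 0 were called in either. At an unadjusted p under 0.05, 11 were higher and 3 lower without the deep library, and 8 were higher and 0 lower with it, beside the shares of all genes given above. The median log2 fold change was 0.25 without the deep library and 0.58 with it. On TMM-scaled CPM of the shallow libraries 22 of 61 (36.1%) were higher without overlap and 3 lower, against 7 of 30 members (23.3%) and 4 lower, and 18.1% higher and 18.8% lower among all genes tested. By role, in the shallow libraries, where 8.95% of all genes were higher and 11.9% lower at that unadjusted p, 4 of 9 tested genes of histone supply and assembly were higher and 0 lower. The numbers were 2 higher and 0 lower of 5 for origin firing, 2 and 0 of 10 for fork protection and topology, and 1 and 0 of 13 for E2F and RB regulators. For nucleotide supply they were 1 and 1 of 12, for origin recognition and licensing 1 and 1 of 6, and for other polymerase, RPA and loader subunits 0 and 1 of 6. With all 6 libraries 0 were lower in any role, and histone supply and assembly had 3 of 9 higher, fork protection 2 of 10, origin firing 2 of 5, nucleotide supply 1 of 12 and the other 3 roles 0.

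The smallest adjusted p was 0.061, for Usp1, a deubiquitinase of PCNA, and Ccna2, which encodes the S phase cyclin A2, had 0.069. Both were singled out after their values were seen. Ccna2 had 399, 174 and 152 CPM in Sirpa-KO, against 92.3, 98.9 and 107 CPM in Sirpa-WT, which did not overlap (log2 fold change 0.60, 0.18 to 1.01, in the shallow libraries). Of the reference points chosen by name, the CDK inhibitor gene Cdkn1a had 206, 162 and 196 CPM in Sirpa-KO, against 129, 119 and 119 CPM in Sirpa-WT. Its groups did not overlap either (0.43, 0.03 to 0.83, adjusted p = 0.193). Top2a, a topoisomerase of cycling cells, had 999, 413 and 473 CPM in Sirpa-KO, against 355, 428 and 362 CPM in Sirpa-WT, with a log2 fold change of 0.10 in the shallow libraries (-0.18 to 0.38). Ccnd1, which encodes cyclin D1 upstream of RB, had 9163, 12 and 11 counts in Sirpa-KO, against 11, 14 and 9 counts in Sirpa-WT. Its high value was in the deep library alone, and Rb1 was under the filter with 1 to 3 counts in each shallow library.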

How the data were processed

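Raw fragment counts per gene were deposited for each library. Per the file headers, the authors made these counts with featureCounts 1.5.1 on the exons of Ensembl release 75 (GRCm38) and set no strand option. The labels' protocols name a stranded mRNA kit. Reads over exons of a gene and an antisense neighbour were thus not told apart by strand. The submitters' processing notes also name STAR 2.6.0 and Subread. The values had not been normalized.

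Symbols came from GENCODE mouse release 21. The members, role groups, pathway list and comparisons were chosen with earlier results of these data known. Genes passing filterByExpr (minimum count 10) were scaled by TMM and tested 2-sided with edgeR 4.0.16 (glmQLFit, robust), with p-values adjusted by Benjamini-Hochberg over every gene tested and a threshold of 0.05, with and without Sirpa-KO replicate 1. R 4.3.3, limma 3.58.1 and DESeq2 1.42.0 served the alternatives. The code was tested on simulated data. Values in every library are given for called members and for the 2 members of each role group with the highest mean RPKM in the shallow libraries, and others named so were chosen after their values were seen. Intervals are 95%, and floors of 3 counts cover counting error only. Single-cell libraries were not analysed here, and 1 listed marker is not reported singly.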

Additional observations from a re-analysis of the deposited data

How the results depend on the processing

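With 6 libraries, 0 members were called under all 18 alternatives run, and the median log2 fold change (0.56) was 0.12 to 0.61 when single libraries were left out, lowest without Sirpa-KO replicate 1. With 5 libraries, 1 member was called under library size alone (Mcm6) and 1 with the replicate block (Pcna), and 0 to 1 when single libraries were left out (Pcna, without Sirpa-WT replicate 1). The median of 0.12 became 0.26 under library size alone, 0.20 over genes with little pseudogene sequence, 0.0035 after removal of the trend with the ratio that sets Sirpa-KO replicate 1 against the others, and 0.051 to 0.22 when single libraries were left out. Library size alone moved the median of all genes by itself, to 0.15 with 5 libraries and 0.36 with 6. The ratio of summed CPM was 1.31 with 6 libraries (1.10 to 1.42 with single libraries left out) and 1.10 with 5 (1.09 to 1.13), and on TMM-scaled totals, an alternative chosen after seeing the data, it was 1.01 with 5 libraries. The cause of these changes was not tested. The sign changed under at least 1 alternative for 14 of 30 members with 5 libraries and 10 of 31 with 6. Same-numbered libraries did not deviate together (correlations -0.03 to 0.06). With so few libraries per group, this cannot show whether the replicate numbers pair them. With the replicate block the biological coefficient of variation was 5.40% with 5 libraries and 86.8% with 6, against 7.25% and 75.8% without it. At 338824 to 411695 counts, 11 members lay under the filter with 5 libraries, so they carry no call in that fit.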
